A study of Mus musculus with 16 samples.

Results

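The genes described here are 38 enzymes, carriers and binding proteins that bring long-chain fatty acids into the cell, activate them and oxidize them, out of 55471 genes in the table and 14331 that passed the filter on low counts. They were taken by symbol, and all 38 were found and passed the filter, so none is missing from the values below. RNA was sequenced from skeletal muscle of 16 male mice, 10 labelled heterozygous and 6 labelled wildtype, in 4 cages. Per the series' design text the mice were Npr1+/- animals of the strain B6.129-Npr1tm1Gar/J, crossed back to C57BL/6J for at least 10 generations, and littermate Npr1+/+ controls. Every mouse of both labels was given a high-fat diet (HFD, 60% of kcal from lipids) for 12 weeks, starting from animals described as 12 weeks old, so no mouse on standard chow is compared here. The allele is a germline one, present in every tissue, and the labels do not name the muscle that was taken. Npr1 encodes GCA, the guanylyl cyclase receptor of atrial natriuretic peptide, and the comparison asks whether muscle of HFD-fed heterozygous mice carries other levels of fatty acid oxidation mRNAs than that of their controls.

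Fatty acids enter the muscle fiber with the help of transport proteins, are bound in the cytosol by fatty acid binding protein, and are coupled to coenzyme A by acyl-CoA synthetases. The carnitine shuttle then carries the acyl group into the mitochondrion, where rounds of dehydrogenation, hydration, a further dehydrogenation and thiolysis shorten the chain and release acetyl-CoA, while the electron transfer flavoprotein passes the electrons on to the respiratory chain. Malonyl-CoA blocks the entry step, peroxisomes shorten chains that mitochondria handle poorly, and oxidative fibers are known to be richer in this machinery than glycolytic ones.

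The libraries held between 15273472 and 59682677 counted fragments, and no member had fewer than 37 counts in any library. Npr1 itself was not lower in the libraries labelled heterozygous. It measured 13.6 ± 3.87 CPM (counts scaled to the TMM-adjusted library total; SD, n = 10) in libraries labelled heterozygous and 12.2 ± 1.05 (SD, n = 6) in those labelled wildtype, with a log2 fold change of 0.09 (SE 0.20, 95% interval -0.33 to 0.51, unadjusted p = 0.657). Npr1 mRNA thus goes against the heterozygous label, and every direction below is between libraries labelled heterozygous and libraries labelled wildtype, called heterozygous and wildtype for short. All 8 skeletal muscle markers were detected, and the fast fiber markers summed to 57905 to 134083 CPM. Some libraries stood apart. Heterozygous replicates 6 and 7 had the highest sums of 9 slow and oxidative fiber markers, 1426 and 1082 CPM against 308 to 751 in the other 14, mostly from Myh2 (1139 and 910 CPM). The same 2 libraries had the highest fast fiber sums, 129759 and 134083 CPM. They were the highest pair for 3 of the 9 slow and oxidative markers, Myh7, Myh2 and Atp2a2, whereas replicate 7 was the lowest of the 16 for Myl2, Myl3 and Casq2 (3.09, 74.9 and 23.9 CPM). They also had the highest sums of 5 endothelial markers, 397 and 446 CPM, and were the highest pair for 4 of the 5, but Emcn was low in both (18.7 and 18.1 CPM). By label, 4 of the 9 slow fiber markers had fold changes above and 5 below 0, and Casq2, calsequestrin of slow and cardiac muscle, was lower in heterozygous than in wildtype libraries at an unadjusted p only (60.7 against 123 CPM, log2 fold change -0.95, p = 0.00144, adjusted p = 1 by edgeR). All 5 erythroid markers had fold changes above 0, with a median of 0.34, and 2 of them passed an unadjusted p under 0.05, Hbb-bt (0.79, p = 0.0265) and Alas2 (0.54, p = 0.045), both with an adjusted p of 1 by edgeR. Fold changes were below 0 for 7 of 8 adipocyte, 7 of 8 skeletal muscle and 6 of 8 fast fiber markers, beside 51.6% of all genes. They were above 0 for 4 of 5 endothelial and 3 of 5 macrophage markers. None of the markers in these 5 lists had an unadjusted p under 0.05 by edgeR. The slow fiber sum ran from 308 to 1426 CPM in heterozygous and from 334 to 534 CPM in wildtype libraries, the endothelial sum from 147 to 446 and from 175 to 225 CPM, and the sum of 8 adipocyte markers from 344 to 1253 and from 507 to 1009 CPM. Wildtype replicate 5 alone carried liver transcripts, with 57.6 CPM of Alb and a sum of 70.0 CPM over 4 hepatocyte markers, against at most 1.2 CPM in any other library. Apoa1 and Ttr were 5.50 and 6.13 CPM there and at 0 in the other 15 libraries. The part of these differences in the results below was not tested, and the counts called between the labels were therefore repeated without them. In bulk tissue, fewer cells of a type and less RNA per cell cannot be told apart.

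On the scale of FPKM (CPM divided by the deposited gene length in kilobases), the 38 genes spanned from 912 for Fabp3, the cytosolic fatty acid carrier of muscle and heart, to 0.554 for Acad10. After Fabp3, the highest mean FPKM belonged to Acadl (317), the long-chain acyl-CoA dehydrogenase, Acot13 (208), an acyl-CoA thioesterase, Acaa2 (192), the mitochondrial 3-ketoacyl-CoA thiolase, Etfa (163), a subunit of the electron transfer flavoprotein, and Crat (161), carnitine acetyltransferase. Fabp3 ranked 44 among all genes tested. The low end held the carnitine palmitoyltransferases of the outer membrane, with a mean FPKM of 3.83 for the muscle form Cpt1b and 1.12 for the liver form Cpt1a, and the peroxisomal enzymes Ehhadh (3.72) and Acox3 (2.75). Cpt1b made up 63.6 to 85.8% of the summed Cpt1 FPKM of the 2 forms, lowest in heterozygous replicate 7. The Cpt1b level is uncertain because 81.4% of its exon bases also belong to Gm44502 on the same strand, and likewise 58.2% of the exon bases of Etfb lie in Gm45233 or Mir7051. For Acadvl, 42.9% of exon bases lie under Dvl2 on the opposite strand, and for Fabp3 19.6% under Gm10570 and Zcchc17. Whether the counting used strand is not given in the sources used here. Among the 5 acyl-CoA synthetases Acsl1 led with a mean FPKM of 32.9, followed by Acsl4 at 6.81, and gave 52.2 to 78.0% of their sum.

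**Figure D1:**
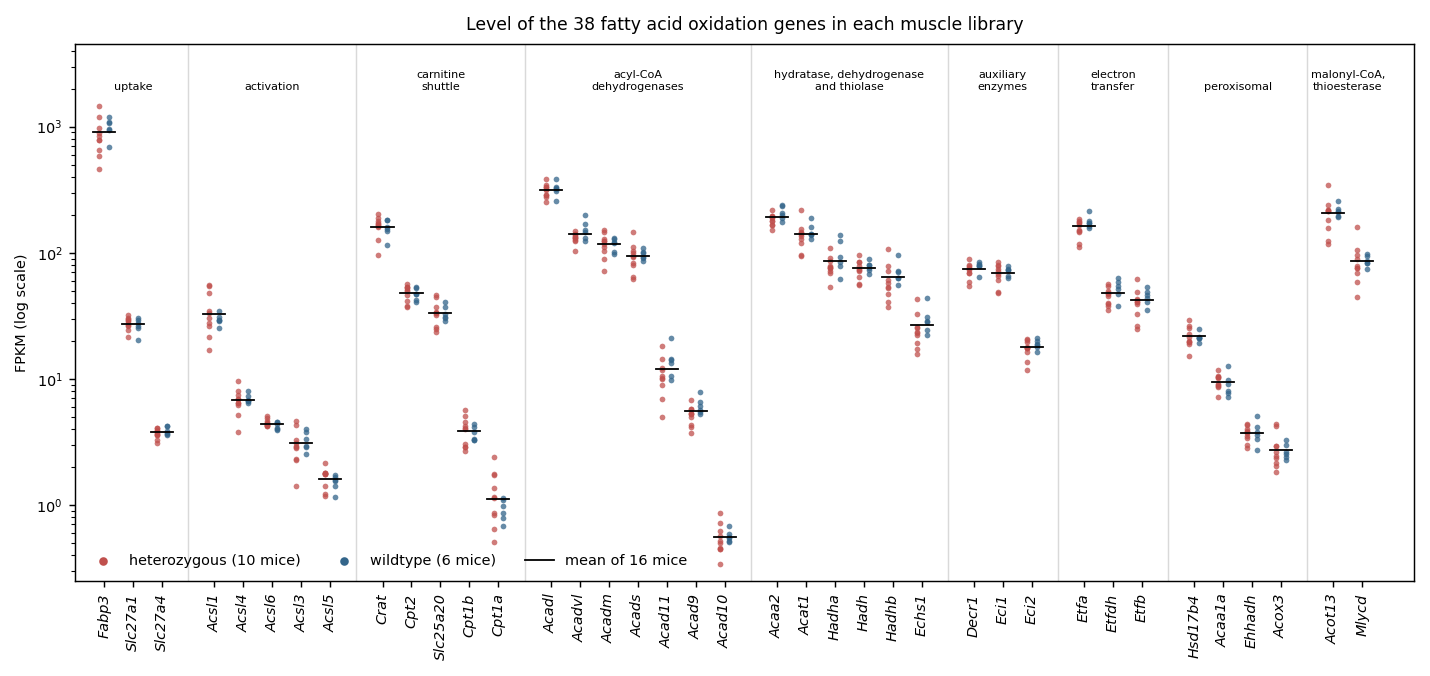
Level of each of the 38 genes (FPKM, log axis), grouped by role, with 1 point per mouse, heterozygous on the left and wildtype on the right of each gene, and a bar for the mean of 16 mice. The points of the 2 labels overlap for every gene, and Fabp3 at a mean of 912 and Acad10 at 0.554 mark the ends of the range.

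None of the 38 genes passed the test between the labels. edgeR's quasi-likelihood test with cage and body weight as covariates called 0 of 38 at a Benjamini-Hochberg adjusted p under 0.05, against a background of 0% of the 14331 genes, and DESeq2 also called 0 of 38. At an unadjusted p under 0.05 the count was again 0 of 38, where 1.05% of all genes passed, and the smallest unadjusted p was 0.305, for Acad9. The range of the heterozygous libraries overlapped that of the wildtype libraries for all 38, and the share of all genes with no overlap was 0.00698%. Fitted log2 fold changes, heterozygous minus wildtype, ran from -0.19 for Acad9 to 0.16 for Ehhadh, with a median of -0.03 beside -0.0060 over all genes. That median ran from -0.061 without heterozygous replicate 7 to -0.0075 without heterozygous replicate 10, and was -0.016 with relative log expression (RLE) size factors in place of TMM, -0.065 with the label as the only term and -0.11 with the replicate number in place of cage. The fold changes were below 0 for 26 of 38 genes (68.4%, against 51.6% of all genes), and for 21 with RLE size factors (55.3%, against 47.3%). With 1 library left out at a time the count ran from 20 without wildtype replicate 1 (52.6%, against 46.8% of all genes) to 31 without wildtype replicate 4 (81.6%, against 48.2%). The adjusted p was 0.999994 for each of the 38.

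The intervals say how large a difference these 16 mice leave room for. For all 38 genes the 95% interval lay inside a 2-fold change in either direction, with outermost bounds of 0.618-fold and 1.76-fold, and for 33 of 38 it lay inside 1.5-fold.

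**Figure D2:**
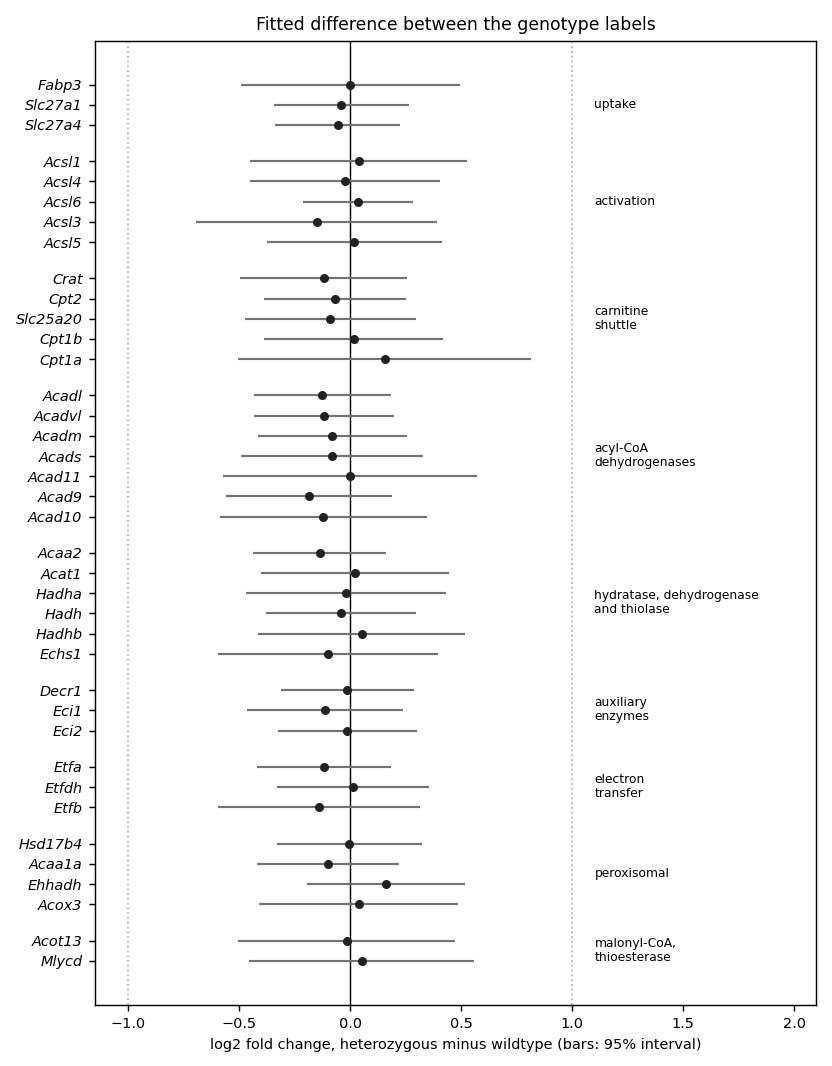
Fitted log2 fold change between the labels for each of the 38 genes (points, heterozygous minus wildtype) with its 95% interval (bars), genes grouped by role; dotted lines mark a 2-fold change. Every bar crosses 0 and stays inside the dotted lines, the widest reaching 0.81 for Cpt1a and -0.69 for Acsl3.

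In what follows, CPM are given as the lowest, the median and the highest library, heterozygous first and wildtype after it, and fold changes are the fitted log2 values, heterozygous minus wildtype. Among the uptake genes, Fabp3 ran from 383 CPM through a median of 670.1 to 1192 in the heterozygous libraries and from 569 through 840.2 to 987 in the wildtype ones. Its lowest and highest values were both heterozygous, replicates 7 and 9, so the wildtype range lay inside the heterozygous one. The fitted log2 fold change was 0.00051 (SE 0.23, 95% interval -0.49 to 0.49, unadjusted p = 0.998). Slc27a4, a fatty acid transport protein with acyl-CoA synthetase activity, ran from 13.8 through 16.3 to 18.1 CPM against 15.8, 16.7 and 18.8, a narrow range for both labels, and its fold change was -0.058 (SE 0.13, 95% interval -0.34 to 0.22, unadjusted p = 0.669). The muscle transporter Slc27a1 had a log2 fold change of -0.04 at a mean of 27.3 FPKM.

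The synthetases that activate long-chain fatty acids showed the same picture. Acsl1, the main form in muscle, fat and liver, ran from 178 through 332 to 580.0 CPM in heterozygous and from 267 through 306 to 363 CPM in wildtype libraries. Again both ends were heterozygous, replicate 9 at the bottom and replicate 6 at the top, and the fold change was 0.037 (SE 0.23, 95% interval -0.45 to 0.52, unadjusted p = 0.873). Acsl3, which is tied to lipid droplet formation, ran from 6.1 through 12.7 to 20.1 against 11.1, 13.7 and 17.5 CPM, with the lowest value again in heterozygous replicate 9, and gave -0.15 (SE 0.26, 95% interval -0.69 to 0.39, unadjusted p = 0.565). Acsl4, which prefers arachidonic acid, Acsl5 and Acsl6 had fold changes of -0.023, 0.018 and 0.036. Acsl6 was the steadiest member over the 16 mice, with an SD of 0.0986 on the log2 CPM scale.

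In the carnitine shuttle, Crat, which exchanges acetyl groups between coenzyme A and carnitine, ran from 516 through 908 to 1088 CPM in heterozygous and from 623 through 847 to 987 in wildtype libraries. The ranges overlapped over most of their length, and the fold change was -0.12 (SE 0.18, 95% interval -0.50 to 0.26, unadjusted p = 0.512). Cpt1b, which forms acylcarnitine at the outer membrane, ran from 9.08 through 13.5 to 19.2 against 11, 12 and 14.9 CPM. Its fold change was 0.015 (SE 0.19, 95% interval -0.39 to 0.42, unadjusted p = 0.939). The liver form Cpt1a varied most among the 38, 4.75-fold from 3.87 CPM in heterozygous replicate 8 to 18.4 in replicate 7, and its interval, -0.50 to 0.81 around 0.15, was the widest. Wildtype replicate 5, the library with liver transcripts, was the highest wildtype one for 6 of the 38 genes (15.8%, against 14.1% of all genes), and the part of liver RNA in the values was not tested. Cpt2, the inner membrane transferase, and the translocase Slc25a20 gave -0.068 and -0.091.

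All 7 acyl-CoA dehydrogenases, which take the first electrons from the acyl chain, had fitted fold changes below 0, with a median of -0.12, but only 2 of them, Acadvl and Acad9, stayed below 0 in all 23 alternative fits. Acad11 turned to 0.016 with RLE size factors, Acadl, Acadm and Acad10 turned to 0.029, 0.085 and 0.11 with the replicate number in place of cage, and Acadm and Acads came to 0.0066 and 0.00037 without wildtype replicate 5 and without heterozygous replicate 6. Acadl, the most abundant of them, ran from 506 through 637 to 775 CPM in heterozygous and from 518 through 645 to 771 CPM in wildtype libraries. These are nearly the same ranges, and the fold change was -0.13 (SE 0.15, 95% interval -0.44 to 0.18, unadjusted p = 0.396). Acad9, which also serves the assembly of complex I, ran from 30.6 through 43.2 to 56 against 42.9, 47.9 and 64.6 CPM. Wildtype replicate 1 was highest and heterozygous replicate 9 lowest, and the fold change, the most negative of the 38, was -0.19 (SE 0.18, 95% interval -0.56 to 0.19, unadjusted p = 0.305). The medium-chain enzyme Acadm ran from 279.8 through 474 to 594 and from 382 through 473 to 516 CPM, with medians that were nearly equal and a fold change of -0.081 (SE 0.16, 95% interval -0.42 to 0.26, unadjusted p = 0.616). The very-long-chain enzyme Acadvl, the short-chain enzyme Acads, Acad10 and Acad11 gave -0.12, -0.082, -0.12 and -0.0024.

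Among the enzymes that follow, Acaa2, the last step of the cycle, ran from 228 through 279 to 334 CPM in heterozygous and from 267 through 307 to 361 CPM in wildtype libraries. The 2 highest values were wildtype, yet the ranges overlapped, and the fold change was -0.14 (SE 0.14, 95% interval -0.44 to 0.16, unadjusted p = 0.342). Hadhb, the thiolase subunit of the trifunctional protein, ran from 243 through 369 to 706 against 366, 439 and 633 CPM. Heterozygous replicates 7 and 9 again held its ends, and its fold change was 0.051 (SE 0.22, 95% interval -0.42 to 0.52, unadjusted p = 0.821). Hadha, the partner subunit with hydratase and dehydrogenase activity, the short-chain dehydrogenase Hadh, the short-chain hydratase Echs1 and the acetoacetyl-CoA thiolase Acat1 gave -0.019, -0.042, -0.10 and 0.021.

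The auxiliary enzymes that prepare unsaturated chains were among the steadier genes, with SDs of 0.192 to 0.236 on the log2 CPM scale. Decr1, 2,4-dienoyl-CoA reductase, ran from 213 through 288 to 348 CPM and from 248 through 309 to 326 CPM, and gave -0.014 (SE 0.14, 95% interval -0.31 to 0.29, unadjusted p = 0.923). Eci1, an enoyl-CoA isomerase, ran from 102 through 148 to 181 against 135, 156 and 168 CPM, and gave -0.11 (SE 0.17, 95% interval -0.47 to 0.24, unadjusted p = 0.50). For both genes the lowest heterozygous library was replicate 6. Eci2, its peroxisomal and mitochondrial relative, gave -0.014.

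Electrons leave through Etfa, Etfb and Etfdh. Etfa ran from 203 through 289.7 to 338 CPM in heterozygous and from 289.7 through 315 to 391 CPM in wildtype libraries, where wildtype replicate 1 was the highest of all and heterozygous replicate 7 the lowest. Its fold change was -0.12 (SE 0.14, 95% interval -0.42 to 0.19, unadjusted p = 0.42). Etfb and the dehydrogenase Etfdh, which hands the electrons to ubiquinone, gave -0.14 and 0.01.

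The 4 peroxisomal genes were split, with 2 fold changes above and 2 below 0. Hsd17b4, a multifunctional hydratase and dehydrogenase, ran from 51.8 through 70.3 to 99.2 CPM against 65.4, 71.8 and 84.8, and gave -0.0045 (SE 0.15, 95% interval -0.33 to 0.32, unadjusted p = 0.977). Ehhadh, the other multifunctional enzyme, ran from 8.5 through 11.2 to 13.1 against 8.16, 11.1 and 15.1 CPM. Its fold change, 0.16 (SE 0.17, 95% interval -0.20 to 0.51, unadjusted p = 0.356), was the most positive of the 38, although both its lowest and its highest library were wildtype. The thiolase Acaa1a and the oxidase Acox3 gave -0.10 and 0.037.

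Last, Mlycd, malonyl-CoA decarboxylase, which removes the inhibitor of the entry step, ran from 132 through 229 to 477 CPM in heterozygous and from 222 through 251 to 289.6 CPM in wildtype libraries. The wildtype values were close together while the heterozygous ones spread 3.61-fold, and the fold change was 0.051 (SE 0.24, 95% interval -0.45 to 0.56, unadjusted p = 0.833). Acot13 ran from 86.9 through 159 to 256 against 143, 158 and 190.3 CPM, and gave -0.018 (SE 0.23, 95% interval -0.50 to 0.47, unadjusted p = 0.94).

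Of the 38 genes, 4 lie on chromosome 3 with Npr1 (GRCm38, chr3:90450591-90465866). The nearest was Etfdh (chr3:79603788-79628863), 10.8 Mb away, with a fold change of 0.01 (unadjusted p = 0.949). Hadh (chr3:131233419-131272101), Acad9 (chr3:36065979-36092853) and Acadm (chr3:153922357-153944632) lay 40.8, 54.4 and 63.5 Mb away.

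Within cages, the summed CPM of the 38 genes differed between heterozygous and wildtype libraries, as the mean of the former minus that of the latter, by -860.4, -512 and -1203 CPM in cages 675, 676 and 677 and by 259.8 CPM in cage 678. The only wildtype library was replicate 4 in cage 678 and replicate 5, the one with liver transcripts, in cage 676. In cage 677 the only heterozygous library was replicate 5. The median difference over the 38 genes was below 0 in all 4 cages, between -0.20 and -0.060 on the log2 scale, while that over all genes lay between -0.05 and 0.020. These differences are not adjusted for body weight, which averaged 43.6 ± 3.79 g (SD, n = 10) in heterozygous and 47.4 ± 4.69 g (SD, n = 6) in wildtype mice, and in cage 675 the heterozygous mice (40.1 and 46.2 g) were lighter than both wildtype mice (49.8 and 54 g). In cage 677 the heterozygous mouse (39.4 g) was lighter than both wildtype mice (43.9 and 48.1 g), and in cage 678 the wildtype mouse (40.5 g) was lighter than 3 of the 4 heterozygous mice. The cages hold 3 to 5 mice each and 1 to 4 per label, so no test was made within them.

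The 38 genes were described mouse by mouse. The summed level ranged from 7341 CPM in heterozygous replicate 7 to 10148 CPM in wildtype replicate 1. Heterozygous replicates 6 and 7 were the lowest pair of the 16 for 13 of 38 genes (34.2%, against 16.2% of all genes tested). These 13 were Fabp3, Acads, Hadhb, Hadh, Echs1, Acat1, Eci1, Eci2, Decr1, Etfa, Etfb, Mlycd and Acot13, which includes all 3 auxiliary enzymes and 4 of the 6 genes of hydration, dehydrogenation and thiolysis. The same pair was the highest of the 16 for 5 of 38 genes (13.2%, against 17.8% of all genes), namely Acsl1, Cpt1a, Acad10, Acox3 and Hsd17b4. Heterozygous replicate 9 was highest for 8 of the 38 (21.1%, against 17% of all genes), Fabp3, Acads, Hadhb, Hadh, Acat1, Etfb, Mlycd and Acot13, all of them also on the list of 13. It was lowest for 9 of the 38 (23.7%, against 19% of all genes), Acsl1 and Hsd17b4 among them. Wildtype replicate 1 was highest for 9 of the 38 (23.7%, against 7.89% of all genes) and heterozygous replicate 1 for 5 (13.2%, against 5.35%). These lists describe the libraries and were drawn from their values, so they carry no test. The 8 fast fiber markers summed to 129759 and 134083 CPM in heterozygous replicates 6 and 7, above the other 14 libraries, and to 82564 CPM in replicate 9. The summed adipocyte markers of replicates 6, 7 and 9 were 571, 344 and 895 CPM. The deposited gene lengths ran from 744 (Acot13) to 8286 bases (Echs1) for the 13 genes lowest in replicates 6 and 7. For the 5 genes highest there they ran from 3404 (Hsd17b4) to 11521 bases (Acox3), so the ranges overlapped. The part of gene length, RNA quality, fiber type, endothelium or fat in these lists was not tested. With replicates 6 and 7 left out, 0 of 38 genes were called between the labels (0.0141% of all genes) and 22 of 38 fold changes were below 0 (57.9%, against 46.1% of all genes). Without wildtype replicate 5 these counts were 0 (0% of all genes) and 22 (57.9%, against 50.5%).

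**Figure D3:**
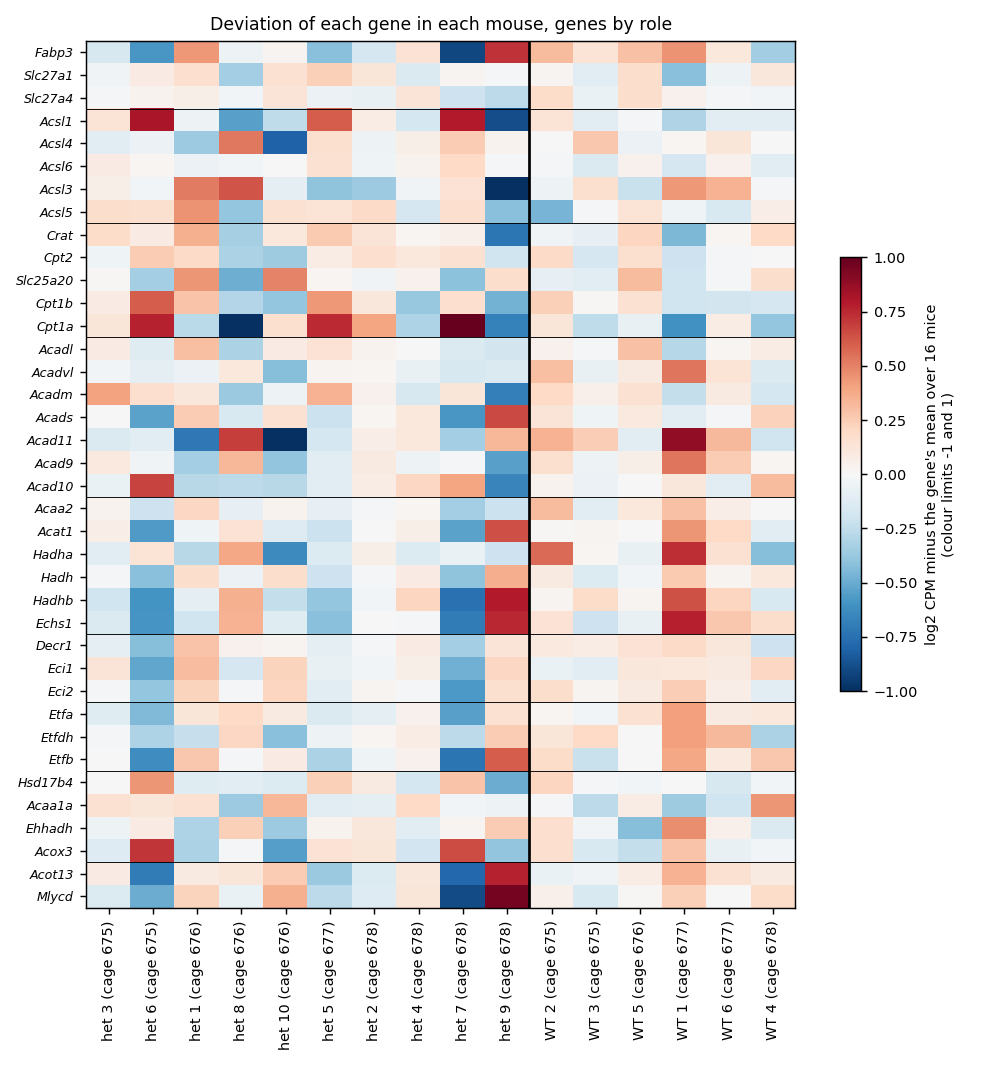
Log2 CPM of each of the 38 genes in each mouse minus the mean of that gene over the 16 mice (colour, limits -1 and 1), genes grouped by role and mice by label and cage, with a vertical line between the labels. The columns of heterozygous replicates 6 and 7 are blue for most genes from Acat1 through Etfb and red at Acsl1 and Cpt1a, and that of heterozygous replicate 9 shows the opposite colours for most of these genes.

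Over the 16 mice the SD of log2 CPM had a median of 0.278 among the 38 genes (0.0986 to 0.583), beside 0.383 over all genes tested. The highest library exceeded the lowest by a median of 2.11-fold, beside 2.67-fold. Cpt1a, Acad11, Acsl1, Fabp3 and Acsl3 varied most and Acsl6, Slc27a4 and Acadl least.

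Body weight ran from 36.5 to 54 g, and its slope was fitted within cages and labels. By edgeR's quasi-likelihood test no member passed an adjusted p under 0.05 (0 of 38, against 0% of all genes), and DESeq2 called 0 as well. At an unadjusted p under 0.05 there were 3 of 38 (7.89%), while 17.1% of all genes passed. The slope of Hadhb was 0.074 log2 units per gram (SE 0.028, p = 0.0173, adjusted p = 0.247), that of Fabp3 0.067 (SE 0.031, p = 0.0436, adjusted p = 0.282). For Acsl1 the slope was negative, -0.07 (SE 0.031, p = 0.0355, adjusted p = 0.267). None of the 3 passed after adjustment. Without heterozygous replicate 7, the lightest mouse, the count at an unadjusted p under 0.05 was 0 of 38 (6.89% of all genes in that fit), and without replicates 6 and 7 together it was 1 (8.61% of all genes), with slopes of 0.066 for Hadhb, 0.055 for Fabp3 and -0.038 for Acsl1. By role, the fitted slopes of all 6 genes of hydration, dehydrogenation and thiolysis and of all 3 electron transfer genes were above 0, and those of all 5 carnitine shuttle genes were below 0, although the slope of Slc25a20, -0.005 (SE 0.024), was 0.0080 without heterozygous replicate 3. The slopes split 20 above to 18 below 0 over the 38 genes, 52.6% above 0 beside 47.3% of all genes. Marker genes moved with weight in the same fit at an unadjusted p under 0.05 only. The myosin genes Myh1, Myh2 and Myh4 had slopes of -0.23, -0.24 and -0.21. Beside the 17.1% of all genes, 4 of 8 fast and 2 of 9 slow fiber markers passed that p, all with negative slopes. Over the full lists, 2 of the 8 fast and 3 of the 9 slow fiber markers had slopes above 0. Of 5 endothelial markers 2 passed, with negative slopes, and 1 of the 5 had a slope above 0. Of 8 adipocyte markers 1 passed, Fabp4, at 0.067, and the 8 slopes split 5 above to 3 below 0. All 5 erythroid markers had slopes above 0, and 2 passed. The part of these cell types in the slopes of the 38 genes was not tested.

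The calls for body weight hung on 1 library. Without heterozygous replicate 3, a mouse of 40.1 g in cage 675, 7 of 38 genes (18.4%) were called at an adjusted p under 0.05, beside 22.1% of all genes tested, 1205 of which were higher and 1953 lower in heavier mice. Of the 7, Fabp3, Hadhb, Echs1, Acat1 and Acot13 were higher and Acsl1 and Cpt1a lower in heavier mice, with slopes of 0.10, 0.12, 0.094, 0.081, 0.093, -0.11 and -0.13 log2 units per gram. A share of 18.4% beside 22.1% is no result about the members. Leaving out any other library gave 0 calls among the 38.

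**Figure D4:**
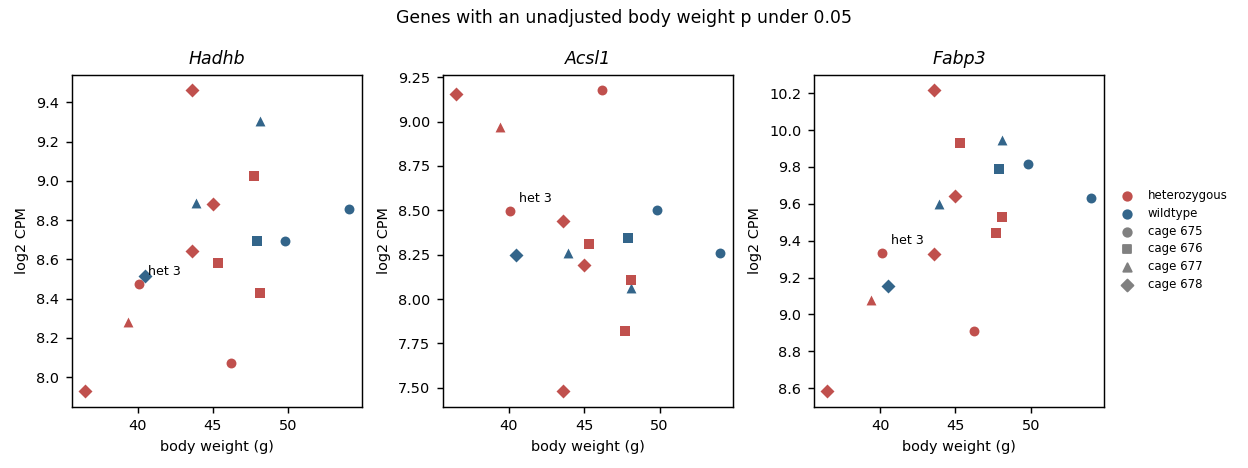
Log2 CPM of Hadhb, Acsl1 and Fabp3 in each of 16 mice against body weight (g), colour for label and symbol for cage, with heterozygous replicate 3 marked. The lightest mouse, heterozygous replicate 7 at 36.5 g, has the lowest Hadhb and Fabp3 and a high Acsl1.

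No member was called between the cages. The test of the 4 cages together called 0 of 38 genes (0.0279% of all genes were called), and DESeq2 likewise 0. At an unadjusted p under 0.05 the count was 0 of 38 by edgeR, where 7.36% of all genes passed. The smallest p belonged to Acadm (0.0651, adjusted p = 0.656), whose mean was 520.0, 442, 478 and 406 CPM in cages 675, 676, 677 and 678. Acsl1 followed (p = 0.106, adjusted p = 0.664) with 403, 286, 358 and 338 CPM, then Cpt1b (p = 0.126, adjusted p = 0.666) with 15, 12.3, 13.1 and 11.6 CPM. With 1 library left out at a time the edgeR p ran from 0.00354 (adjusted p = 0.0535) to 0.493 for Acsl1 and from 0.0139 (adjusted p = 0.0958) to 0.363 for Cpt1b, lowest without heterozygous replicate 3, where 6.08% of all genes were called between cages, and highest without heterozygous replicate 6. For Acadm it ran from 0.0355 to 0.116. All 3 genes were highest on average in cage 675.

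Genes whose products work as partners were compared across the 16 mice, as 4 pairs. Pairs of genes that are not partners were not compared, and the permutation tests ask only whether 2 genes vary independently. A small p therefore says nothing about partnership. Etfa and Etfb are both among the 13 genes that were lowest in heterozygous replicates 6 and 7. Etfa and Etfb, the 2 subunits of the electron transfer flavoprotein, rose and fell together on the log2 CPM scale (Pearson's r = 0.87, permutation p = 8e-05, adjusted p = 0.00032 over the 4 pairs; Spearman's rho = 0.71, permutation p = 0.00295, adjusted p = 0.0118). After cage means were subtracted r was 0.91 (permutation p = 2e-05, adjusted p = 8e-05). Here the centred values were shuffled over all 16 mice and not within cages, so this p can be too small. Without the 2 libraries farthest from the median of Etfa, heterozygous replicates 7 and 6, r was 0.64 (permutation p = 0.0132, adjusted p = 0.0526), so the adjusted call rests on those libraries. Leaving out 1 library at a time gave r between 0.80 and 0.90 for this pair. The Etfb counts carry the uncertainty of the exons it shares with Gm45233. Etfa and Etfdh gave r = 0.53 (permutation p = 0.0343, adjusted p = 0.0687; rho = 0.47, permutation p = 0.0688, adjusted p = 0.138), 0.65 after cage means were subtracted (adjusted p = 0.0113 by permutation, with the same limit) and 0.32 without the same 2 libraries. For Hadha and Hadhb, which form one protein complex, r was 0.35 (permutation p = 0.184, adjusted p = 0.245; rho = 0.32, permutation p = 0.226, adjusted p = 0.301) and 0.16 without wildtype replicates 1 and 2, the 2 farthest from the median of Hadha. Without heterozygous replicates 6 and 7 it was 0.49 (permutation p = 0.0778, adjusted p = 0.156), beside 0.64 for Etfa and Etfb, and the difference between the correlations was not tested. With 1 library left out at a time it ran from 0.16 without wildtype replicate 1 to 0.51 without heterozygous replicate 9. Cpt2 and Slc25a20 gave r = -0.036 (permutation p = 0.893, adjusted p = 0.893; rho = -0.041, permutation p = 0.883, adjusted p = 0.883). That r was -0.30 without heterozygous replicate 8 and 0.25 without heterozygous replicate 10. With 3 to 5 mice per cage, no r was computed within single cages.

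**Figure D5:**
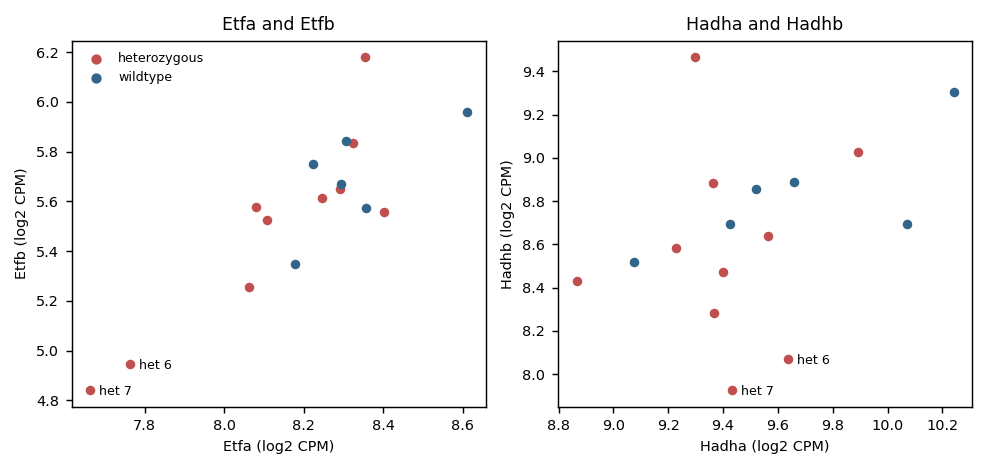
Log2 CPM of Etfb against Etfa and of Hadhb against Hadha in each of 16 mice, colour for label, with heterozygous replicates 6 and 7 marked. Over all 16 mice r is 0.87 in the first panel, where these 2 mice lie at the lower left, and 0.35 in the second, and over the other 14 mice it is 0.64 and 0.49.

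The start regions of these partner genes are shown because the pairs differ in arrangement. By their RefSeq starts Hadha and Hadhb lie 273 bases apart on opposite strands of chromosome 5 (86 bases by the gene bounds of the deposited table), so that their windows share 228 bases and only that of Hadhb is printed, while Etfa and Etfb lie on chromosomes 9 and 7. Each RefSeq window (GRCm38.p6) holds the 250 bases before the annotated start in lower case and the 50 bases from the start on in capitals, in the direction of the gene.
Hadhb, chr5:30155003-30155302, plus strand: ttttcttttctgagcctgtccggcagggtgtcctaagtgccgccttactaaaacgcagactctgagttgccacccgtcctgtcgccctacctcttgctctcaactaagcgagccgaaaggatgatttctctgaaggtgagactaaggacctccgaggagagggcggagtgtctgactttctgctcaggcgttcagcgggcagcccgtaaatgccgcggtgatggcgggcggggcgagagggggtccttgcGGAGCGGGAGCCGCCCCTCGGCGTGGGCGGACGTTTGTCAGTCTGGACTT
Etfa, chr9:55512194-55512493, minus strand: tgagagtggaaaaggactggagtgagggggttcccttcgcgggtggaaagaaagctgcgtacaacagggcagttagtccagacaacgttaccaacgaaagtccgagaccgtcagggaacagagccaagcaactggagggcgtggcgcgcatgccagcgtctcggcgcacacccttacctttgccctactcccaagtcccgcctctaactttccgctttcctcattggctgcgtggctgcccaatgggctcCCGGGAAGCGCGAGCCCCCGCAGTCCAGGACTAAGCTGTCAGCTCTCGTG
Etfb, chr7:43443822-43444121, plus strand: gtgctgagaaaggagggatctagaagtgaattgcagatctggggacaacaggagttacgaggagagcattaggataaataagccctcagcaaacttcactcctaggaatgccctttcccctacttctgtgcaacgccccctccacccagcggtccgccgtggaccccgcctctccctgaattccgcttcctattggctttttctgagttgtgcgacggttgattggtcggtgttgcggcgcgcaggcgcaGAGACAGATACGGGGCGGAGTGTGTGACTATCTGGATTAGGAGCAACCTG

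RefSeq windows were found for 30 of the 38 genes, 35 windows in all. They were rich in G and C, with a median of 60.7% (50 to 77%) beside 52.7% over 32851 mouse windows, and held a median of 17 CpG pairs beside 7. On both strands, none of the 35 held TATAAA, the core letters of a TATA box, which 13.6% of all windows held. None held AGGTCANAGGTCA, the letters bound by PPAR with RXR (0.0396% of all windows), nor the looser AGGNCANAGGNCA, which includes it (0.381%). These counts say only which letters stand in these windows. The window of Acsl6 held TCAAGGTCA, the letters of the estrogen-related receptor element (0.423% of all windows).

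The other genes of the pathway were compared in the same fit. Of 30 other genes of fatty acid oxidation, 28 were tested, and 0 were called by edgeR between the labels, 0 of them with an unadjusted p under 0.05. With body weight, 7 of the 28 had an unadjusted p under 0.05 (17.1% of all genes, 680 with positive and 1769 with negative slopes), 2 with positive and 5 with negative slopes and none with an adjusted p under 0.05, among them the carnitine transporter Slc22a5, at 0.063 log2 units per gram (adjusted p = 0.254). Of 22 regulators and fuel switch genes, 0 were called and 1 had an unadjusted p under 0.05 between the labels. With body weight 10 of the 22 had an unadjusted p under 0.05, against the same 17.1%, 2 with positive and 8 with negative slopes, none with an adjusted p under 0.05. The lowest unadjusted p of these was that of Acacb, the acetyl-CoA carboxylase that makes malonyl-CoA at the mitochondrion, at -0.17 log2 units per gram (adjusted p = 0.245). The receptor Ppara was at -0.14 and Ucp3, an uncoupling protein of muscle, at -0.063 (adjusted p = 0.245 for both).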

How the data were processed

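Poly-A RNA of 16 muscles was sequenced as 52-bp paired ends. The authors aligned reads with STAR 2.7.2b to GRCm38 and deposited raw counts per gene from featureCounts (1.6.4 in the submitters' processing notes) on GENCODE release 24 (mouse), counting fragments with both ends aligned. Symbols came from GENCODE release 21 on the same build. The groups are the deposited genotype labels. Counts were filtered by edgeR 4.0.16 (filterByExpr by label; R 4.3.3), scaled by TMM and fitted with glmQLFit (robust) on label, cage and body weight over 14331 genes, with Benjamini-Hochberg adjustment over all of them and a threshold of 0.05. CPM are TMM-scaled; log2 CPM used a prior count of 0.5. Correlations used 100000 permutations, two-sided, over 4 pairs. DESeq2 1.42.0, RLE size factors, other filters, the label alone, a replicate block and leaving out each library were alternatives. Scripts were tested on simulated data. There the label test called 1 of 100 genes set to a 1.5-fold change and 32 of 100 set to a 2-fold change, with 2 false calls. The body weight test called 26 of 200 genes set to a slope of 0.1 log2 units per gram. Many changes of these sizes thus go uncalled. The members and the gene lists were chosen with earlier results of these data known. In each of 9 role groups, full values are given for the gene of highest mean FPKM and of smallest label p, and for the 3 smallest p for body weight and for cage. Each library carries its own body weight, and p-values measure the spread between these mice. Depth ranged from 15273472 to 59682677 counts per library. The values of some genes of the wider lists are not reported here.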

Additional observations from a re-analysis of the deposited data

Results flagged for a closer look

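Within each label, the highest or lowest library stood far from the rest, by Dixon's 95% criterion, for 6 of 92 sets of values, and chance alone gives about 5. For Acadvl, heterozygous replicate 10 was lowest, at 8.11 log2 CPM, with the next library at 8.38. For Decr1, wildtype replicate 4 was lowest, at 7.95, with the next at 8.24. Heterozygous replicate 5 was the deepest library, with 59700000 counts after rounding and the next at 23800000. Wildtype replicate 4 had the highest sum of adipocyte markers among wildtype libraries, 1010 CPM, with the next at 658 CPM. The hepatocyte marker sum was highest in heterozygous replicate 10 among heterozygous libraries, at 1.2 CPM with the next at 0.606, and in wildtype replicate 5 among wildtype libraries, at 70.0 CPM with the next at 0.905.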

How the results depend on the processing

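In none of the 23 alternative fits was a member called between the labels. The sign of the fitted fold change was steady in 8 of 38 genes and changed in at least 1 fit in 30. On the log2 scale the changed values were, with RLE size factors, Acad11 (0.0162), Eci2 (0.00373), Decr1 (0.00207), Hsd17b4 (0.00767) and Acot13 (0.00605); without a filter on low counts, Acad11 (0.0156), Eci2 (0.00331), Decr1 (0.00179), Hsd17b4 (0.00886) and Acot13 (0.00271); with DESeq2, Acad11 (0.0164), Eci2 (0.00366), Decr1 (0.00191), Hsd17b4 (0.00783) and Acot13 (0.00607). With the label as the only term they were Slc27a1 (0.0656), Fabp3 (-0.21), Cpt2 (0.0176), Crat (0.0479), Hadhb (-0.20), Acat1 (-0.12), Etfdh (-0.20), Acaa1a (0.0732), Ehhadh (-0.0352), Hsd17b4 (0.0223) and Mlycd (-0.0137). With heterozygous replicates 6 and 7 left out, chosen after seeing the data, they were Acsl1 (-0.019), Acsl4 (0.0393), Cpt1b (-0.0365), Acad11 (0.0522), Hadha (0.0318), Hadh (0.0191), Eci2 (0.0532), Decr1 (0.0682), Acox3 (-0.0446) and Acot13 (0.0671). Leaving out 1 library at a time moved these values across 0, given as lowest to highest: Slc27a1 (-0.12 to 0.0187), Fabp3 (-0.17 to 0.10), Acsl1 (-0.0923 to 0.19), Acsl4 (-0.18 to 0.0878), Acsl5 (-0.0502 to 0.0876), Acsl6 (-0.0466 to 0.0891), Cpt1a (-0.12 to 0.37), Cpt1b (-0.0705 to 0.14), Cpt2 (-0.17 to 0.0375), Acadm (-0.19 to 0.00658), Acads (-0.17 to 0.000375), Acad11 (-0.25 to 0.14), Hadha (-0.20 to 0.0777), Hadhb (-0.0635 to 0.14), Hadh (-0.12 to 0.0194), Echs1 (-0.22 to 0.000641), Acat1 (-0.0753 to 0.12), Eci2 (-0.0526 to 0.0567), Decr1 (-0.11 to 0.0591), Etfdh (-0.15 to 0.0895), Acaa1a (-0.15 to 0.0869), Acox3 (-0.12 to 0.12), Hsd17b4 (-0.0743 to 0.0738), Mlycd (-0.11 to 0.20) and Acot13 (-0.15 to 0.0858).

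Same-numbered mice of the 2 labels shared only a number. Over 6 such pairs the correlation of their deviations averaged 0.068 (0.029 to 0.16), beside -0.0068 over 54 other pairs. With the replicate block in place of cage, 2 of 38 genes, Echs1 and Etfb, had an unadjusted p under 0.05 between the labels (smallest adjusted p 0.52 by edgeR), beside 9.03% of all genes. The changed values under the block were Slc27a1 (0.0844), Slc27a4 (0.0122), Fabp3 (-0.17), Cpt2 (0.17), Crat (0.14), Acadl (0.0289), Acadm (0.0852), Acad10 (0.11), Hadhb (-0.29), Acat1 (-0.27), Etfdh (-0.19), Acaa1a (0.0819), Ehhadh (-0.088), Hsd17b4 (0.10) and Mlycd (-0.21), and the body weight slope of Acsl1 was 0.0033.

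Members called for body weight ranged from 0 to 7 when 1 library was left out, the 7 without heterozygous replicate 3. Without heterozygous replicates 6 and 7, r fell to 0.64 for Etfa and Etfb and was 0.49 for Hadha and Hadhb and 0.22 for Cpt2 and Slc25a20; after cage means were subtracted it was 0.65 for Etfa and Etfdh and 0.080 for Cpt2 and Slc25a20. Over all genes, 0 were called between the labels, but 6 with DESeq2, 8 without a filter, 2 with the block, 2 without heterozygous replicate 6, 2 without replicates 6 and 7 and 3 without wildtype replicate 3; at an unadjusted p under 0.05, 1.05% passed, but 2.74% without a filter, 3.8% with the label alone, 2% without heterozygous replicate 7 and 1.6% without wildtype replicate 5. Over all genes 4 were called between cages, but 78 with DESeq2, 23 without a filter and 869 without heterozygous replicate 3. The causes were not tested.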
